A study of Homo sapiens with 6 samples.

Results

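Cytosolic ribosomal protein genes were examined in C4-2 prostate cancer cells whose Polycomb methyltransferase EZH2 was inhibited or depleted. Members were taken by name: every gene symbol that starts with RPL, RPS or RPLP, goes on with a number and ends there or with A, L or X. This rule uses no measured value and finds 80 of the 28503 lines of the expression table, 49 for the large subunit and 31 for the small subunit. Of these 80, 76 are the standard proteins or near copies of them, and 4 (RPL3L, RPL10L, RPL39L and RPS27L) are paralogues that replace or resemble a standard protein. In total 78 members reached 1 FPKM in some column; the other 2, RPL3L and RPL39L, did not.

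C4-2 is an established line derived from LNCaP, grown in serum-containing medium and used at passages 10 to 15. The groups were GSK126, an inhibitor of EZH2 catalysis; astemizole, an antihistamine reported to disturb the pairing of EZH2 with its partner EED; vehicle, the control of both compounds; EZH2 knockdown, made with lentivirus carrying 1 of 2 EZH2 hairpins; and a scramble hairpin, the control of the knockdown, also delivered by lentivirus. All values, from polyadenylated RNA, are FPKM: fragment counts divided by the length of the transcript and by the size of the library. The labels give 6 libraries and the deposited values fill 5 columns, because the authors give a single knockdown column for the 2 hairpin libraries; how it was made is not stated in the labels. Each condition thus has 1 value, so no p-value or standard deviation between replicates is given, and every ratio describes these libraries only. Read totals are unknown. EZH2 itself stood at 17.5 FPKM with GSK126, 9.48 with astemizole, 26.5 with vehicle, 3.35 in the knockdown and 24.6 with scramble shRNA. The 5 luminal prostate markers summed here (KLK3, KLK2, FOLH1, KRT8 and KRT18) were above 0 in every column and came to between 2861 and 4929 FPKM. Of 4 fibroblast markers the sum was at most 2.51 FPKM in any column, and of 4 blood cell markers at most 8.07 FPKM, in the GSK126 column. The 6 liver markers summed to 173 FPKM with GSK126, 4.38 with astemizole, 19.0 with vehicle, 1.69 in the knockdown and 1.53 with scramble shRNA.

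Each ribosome joins a small subunit, which reads the mRNA, to a large subunit, which makes the peptide bond, and nearly every protein in it is present as a single copy. The genes are scattered over the genome, here on 21 chromosomes, and cells nevertheless keep their mRNAs in step. Many of these mRNAs start with a terminal oligopyrimidine (TOP) tract, a C followed by further C and T bases at the cap, through which the mTOR pathway and the protein LARP1 govern their translation. Proliferating tumour cells devote much of their mRNA to this family. Because FPKM is relative to all mapped fragments, fewer ribosomal protein mRNAs per cell and more of other mRNAs cannot be told apart here.

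The tract could be seen at the starts of the members. RefSeq promoters (GRCh38.p14) were at hand for 63 of the 80 members. The following windows run from 10 bases before the start to 20 bases from it, 5′ to 3′ on the gene's strand, with the run of C and T at the start in capitals. The stalk genes RPLP0, RPLP1 and RPLP2, RPS12 and RPS6 are shown because their levels are described below, and RPS27 with RPS27L, RPL10L and RPL9 because their levels went a different way.
RPLP0: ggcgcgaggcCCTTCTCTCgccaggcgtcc
RPLP1: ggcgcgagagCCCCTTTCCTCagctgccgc
RPLP2: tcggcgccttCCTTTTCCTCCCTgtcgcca
RPS12: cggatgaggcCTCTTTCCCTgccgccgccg
RPS6: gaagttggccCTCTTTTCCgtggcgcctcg
RPS27: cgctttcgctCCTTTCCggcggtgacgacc
RPS27L: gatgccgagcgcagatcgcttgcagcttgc
RPL10L: gtagttaagagagcgcattttgacttcgag
RPL9: taatgacgacagacgttctttctttgctgc
These windows lie at chr12:120201092-120201121 (minus strand) for RPLP0, chr15:69452808-69452837 (plus) for RPLP1, chr11:809957-809986 (plus) for RPLP2, chr6:132814559-132814588 (plus) for RPS12 and chr9:19380217-19380246 (minus) for RPS6. RPS27 is at chr1:153990752-153990781 (plus), RPS27L at chr15:63157458-63157487 (minus), RPL10L at chr14:46651762-46651791 (minus) and RPL9 at chr4:39458903-39458932 (minus). The first 6 begin with a run of 7 to 13 pyrimidines, while RPS27L and RPL10L begin with G and RPL9 with A, its pyrimidines starting a few bases further in. Of the steadiest members described below, RPL4 and RPL27 have no run at the start and RPL15 has 1 base at most. RPL35A has a run of 8 and RPS10 a run of 7.

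Across the family the same feature was common. A run of at least 5 C or T bases from the first base, read on the gene's own strand, was held by 45 of 63 members (71.4%), counting a gene when any of its listed starts had it. The same held for 6 of 69 mitochondrial ribosomal protein genes (8.70%), for 1064 of 15843 protein-coding genes (6.72%) and for 1774 of all 27305 genes in the table (6.497%). The single opening CTCTT, which falls within that class, began 12 members (19.0%) and 0.714% of all genes. When the run was allowed to begin anywhere from base 1 to base 10, 55 of 63 members (87.3%) and 31.05% of all genes had one. Within the window from 250 bases before to 50 bases after the start, on either strand, the ETS-type motif CCGGAAG occurred in 23 members (36.5%), in 43.5% of mitochondrial ribosomal protein genes and in 12.2% of all genes. AAGATGG, the core of YY1 sites, occurred in 12.7% of members, 34.8% of mitochondrial ribosomal protein genes and 7.11% of all genes, and TATAAA in 9.52% and 13.99%. Members without a listed start include RPL23, RPL23A, RPL30, RPL37, RPL39L, RPL3L, RPL5, RPL7, RPL8, RPS15A, RPS2 and RPS20.

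Members were among the most abundant mRNAs of these cells in every column. With vehicle, the 78 members past the filter had a median of 3130 FPKM, with quartiles of 1326 and 4397 FPKM, against a median of 10.6 FPKM over the 12938 genes tested. Of the 20 lines with the highest FPKM, members held 14 with GSK126, 12 with astemizole, 14 with vehicle, 17 in the knockdown and 14 with scramble shRNA. RPL41, which encodes the smallest ribosomal protein from a coding sequence of 75 bases, stood at 8796 FPKM with GSK126, 11186 with astemizole, 10833 with vehicle, 8431 in the knockdown and 7366 with scramble shRNA. RPS18, of the small subunit head, stood at 9239, 11706, 10138, 10261 and 7905 FPKM in the same order of columns. RPL41 led with vehicle and RPS18 in the other 4 columns.

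Although nearly every standard protein is present as a single copy, 14 of the 78 members lay under 1000 FPKM with vehicle. These 14 include the paralogues RPL10L and RPS27L. Levels are per transcript length, and short mRNAs and reads shared with the many pseudogenes of this family can move them, so the order of genes is less secure than the ratio of 1 gene between columns. The 9 members with a coding sequence under 300 bases had a median of 4191 FPKM with vehicle, the 69 longer ones 2832 FPKM. Among the lowest standard members were RPL22, with 273 FPKM with vehicle, and RPL27A, with 284 FPKM. RPS23, which lies at the decoding centre, had 354 FPKM.

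**Figure D1:**
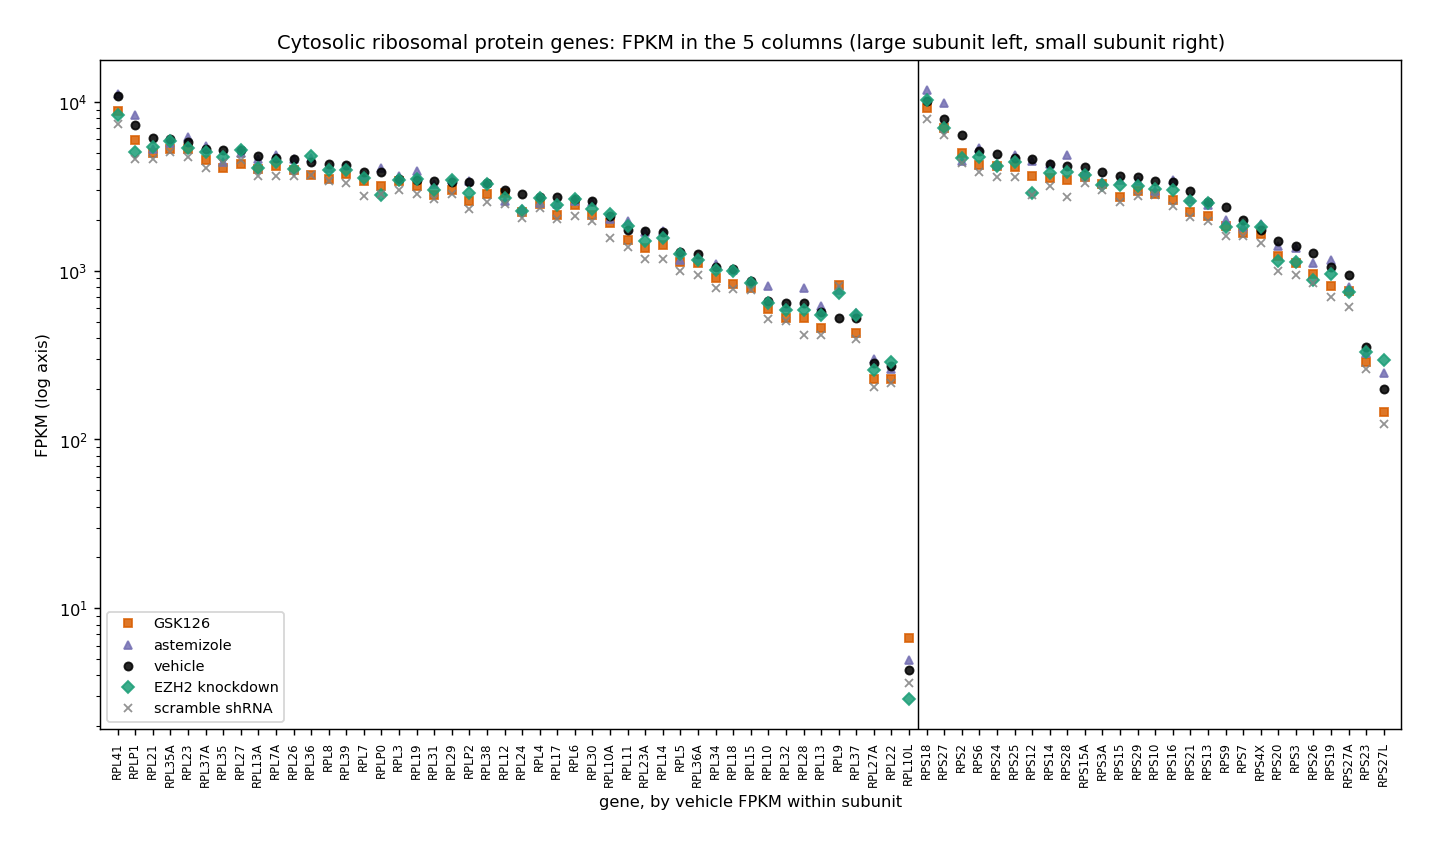
FPKM (log axis) of 73 of the 78 members past the filter, ordered by the vehicle value within the large subunit (left) and the small subunit (right), 1 marker per column. Most genes have their 5 markers close together with the scramble cross lowest. RPL9 is lowest with vehicle and RPL10L in the knockdown, while RPS27L has the scramble cross lowest and the knockdown highest.

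The summed FPKM of all 80 members was 208495 with GSK126, 245617 with astemizole and 246765 with vehicle. It was 221424 in the knockdown and 188782 with scramble shRNA. As a share of all FPKM in a column this was 30.4% with GSK126, 31.8% with astemizole, 30.98% with vehicle, 32.7% in the knockdown and 28.5% with scramble shRNA. The share was thus within 0.60 percentage points of vehicle with GSK126 and 0.80 with astemizole, 2.46 points below vehicle with scramble shRNA, and 4.23 points higher in the knockdown than with scramble shRNA. When only lines with a name in the reference symbol tables were summed, the shares were 32.6%, 35.2% and 33.1% for GSK126, astemizole and vehicle, and 34.0% and 30.5% for the knockdown and scramble shRNA. The ratio of large to small subunit sums stayed between 1.39 (vehicle) and 1.45 (knockdown).

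**Figure D2:**
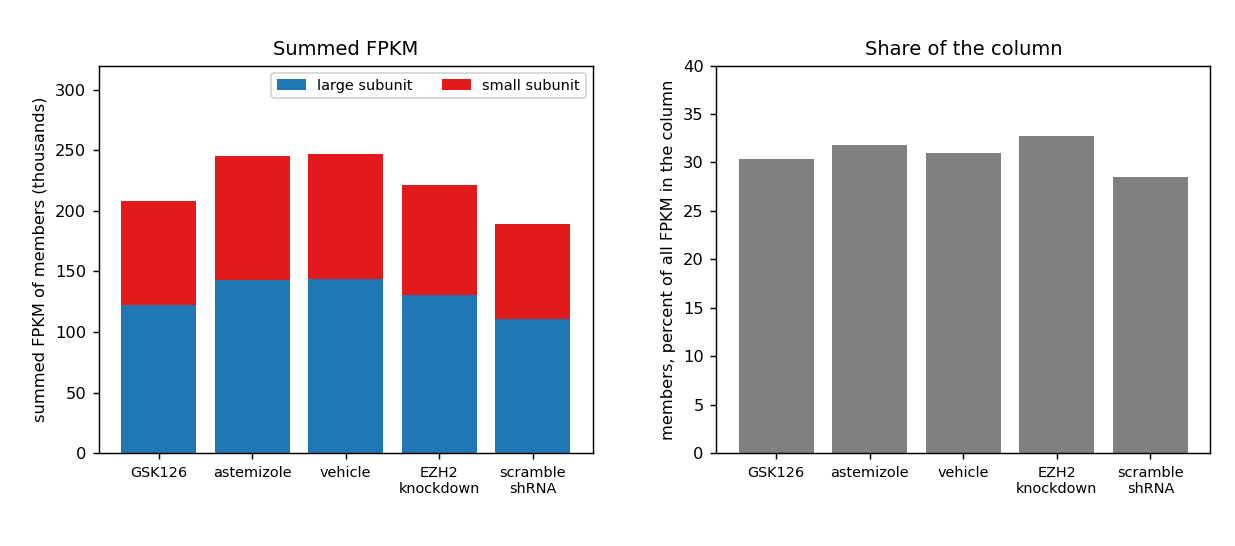
Left, summed FPKM of the members (axis in units of 1000 FPKM), with the large subunit at the bottom of each bar and the small subunit on top. Right, the same sum as a percent of all FPKM in the column, between 28.5% (scramble shRNA) and 32.7% (knockdown).

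GSK126 against vehicle addressed what changes when EZH2 catalysis is inhibited. Nearly the whole family was slightly lower with GSK126: 76 of 78 members were below vehicle and 2 above. Below vehicle were also 7025 of the 12938 genes tested. The median log2 ratio of FPKM + 1 was -0.27, with quartiles of -0.31 and -0.19, against a median of -0.04 over all genes tested. At least 1.2-fold lower were 41 members (52.6%), against 25.6% of all genes, and at least 1.2-fold higher were 2 members, against 19.5% of all genes. No member passed 2-fold in either direction, as did 1.05% of all genes upward and 0.951% downward. The 530 other named genes at 200 FPKM or more in some column had a median of -0.30, with 455 below vehicle. They were not matched to the members in level. After each column was rescaled to the same total (TPM) the member median was -0.05 and no member was 1.2-fold lower, because that step moved the median of all genes to 0.16; relative to all genes the members stood at -0.23 before and -0.21 after. Against the scramble column in place of vehicle the member median was 0.15, with 0.053 over all genes; 10 members were at least 1.2-fold higher, against 22.8% of all genes, and 1 lower, against 11.9%. All 6 liver markers were higher with GSK126 than with vehicle, as was the blood marker sum, with 8.07 against 1.14 FPKM. Of that sum LYZ alone held 7.57 and 1.03 FPKM, and the other blood markers were each under 1 FPKM. The part of the liver and blood markers in these ratios was not tested.

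The lowest ratios with GSK126 belonged to the small subunit: RPS15, which lies near the decoding site, at -0.41, RPS26, which lines the mRNA exit, at -0.40, RPS21 at -0.40 and RPS19, the gene most often mutated in Diamond-Blackfan anaemia, at -0.38, besides the paralogue RPS27L at -0.46. RPS19 had 812 FPKM with GSK126 and 1056 FPKM with vehicle. At the other end, RPL3, of the peptidyl transferase centre, had 3405 FPKM with GSK126 and 3477 FPKM with vehicle (-0.03), RPL12 had -0.07 and RPS4X -0.08. All 31 small subunit genes and 45 of 47 large subunit genes were lower; the subunit medians were -0.28 and -0.25.

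Astemizole against vehicle addressed what changes with a compound reported to disturb the pairing of EZH2 with EED. The family as a whole stood level with vehicle: 35 members were above vehicle and 43 below. Over all 12938 genes tested 5772 were above and 7153 below. The members' median log2 ratio was -0.02, with quartiles of -0.09 and 0.07. Within 1.2-fold of vehicle lay 70 of 78 members. At least 1.2-fold higher were 5 members (6.41%), against 24.2% of all genes, and at least 1.2-fold lower were 3 (3.85%), against 32.9% of all genes. No member passed 2-fold, against 3.53% of all genes upward and 5.50% downward. Against the scramble column the member median was 0.37, with 0.027 over all genes, and 60 members were at least 1.2-fold higher, against 30.0% of all genes, and 1 lower, against 25.7%.

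Members nevertheless differed from each other with astemizole. RPS2, at the mRNA entry, stood at 4465 FPKM with astemizole and 6411 FPKM with vehicle (-0.52) and was among the lowest ratios. RPL24 had -0.28, RPS9 -0.25 and RPS27A, which is made as a fusion with ubiquitin, -0.24. RPS27 stood at 9901 FPKM with astemizole and 7897 FPKM with vehicle (0.33), RPL28 at 794 and 641 FPKM (0.31), RPL10, of the peptidyl transferase centre, at 807 and 666 FPKM (0.28), and RPS28 had 0.22. The stalk genes, whose proteins recruit the elongation factors, had 0.08 (RPLP0), 0.21 (RPLP1) and 0.02 (RPLP2).

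EZH2 knockdown against scramble shRNA addressed what changes when EZH2 is depleted. The family was slightly higher in the knockdown: 74 of 78 members stood above scramble shRNA and 4 below. Above scramble shRNA were also 6820 of the 12938 genes tested. The median log2 ratio was 0.26, with quartiles of 0.17 and 0.35, against 0.03 over all genes tested. At least 1.2-fold higher were 38 members (48.7%), against 27.7% of all genes, and at least 1.2-fold lower was 1, against 26.1%. Past 2-fold were 1 member upward, RPS27L, and 1 downward, against 1.95% and 5.10% of all genes. The 530 other genes at 200 FPKM or more had a median of 0.08, with 308 above scramble shRNA.

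The control column itself stood low. The scramble column was the lowest of the 5 for 71 of 78 members, a count not made over all genes. Below vehicle with scramble shRNA were 76 members and 8427 of the 12938 genes tested. Set against vehicle, scramble shRNA had a member median of -0.39, with quartiles of -0.47 and -0.33, against -0.11 over all genes and -0.32 over the other genes at 200 FPKM or more. Of the 78 members, 67 (85.9%) were at least 1.2-fold lower with scramble shRNA than with vehicle, against 28.2% of all genes, and 2 were at least 1.2-fold higher, against 9.52%. Past 2-fold were 1 member upward and 0 downward; 0.170% of all genes were past 2-fold upward and 0.850% downward. After TPM rescaling the median was -0.13, and 15 members were lower by that factor. With vehicle as its control, the knockdown had a member median of -0.13; past 1.2-fold were 13 members downward, against 35.8% of all genes, and 2 upward, against 23.3%. In all, 64 members lay between scramble shRNA and vehicle in the knockdown column, which was likewise not counted over all genes. The knockdown and the scramble comparison share the scramble column, so their ratios are not independent.

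**Figure D3:**
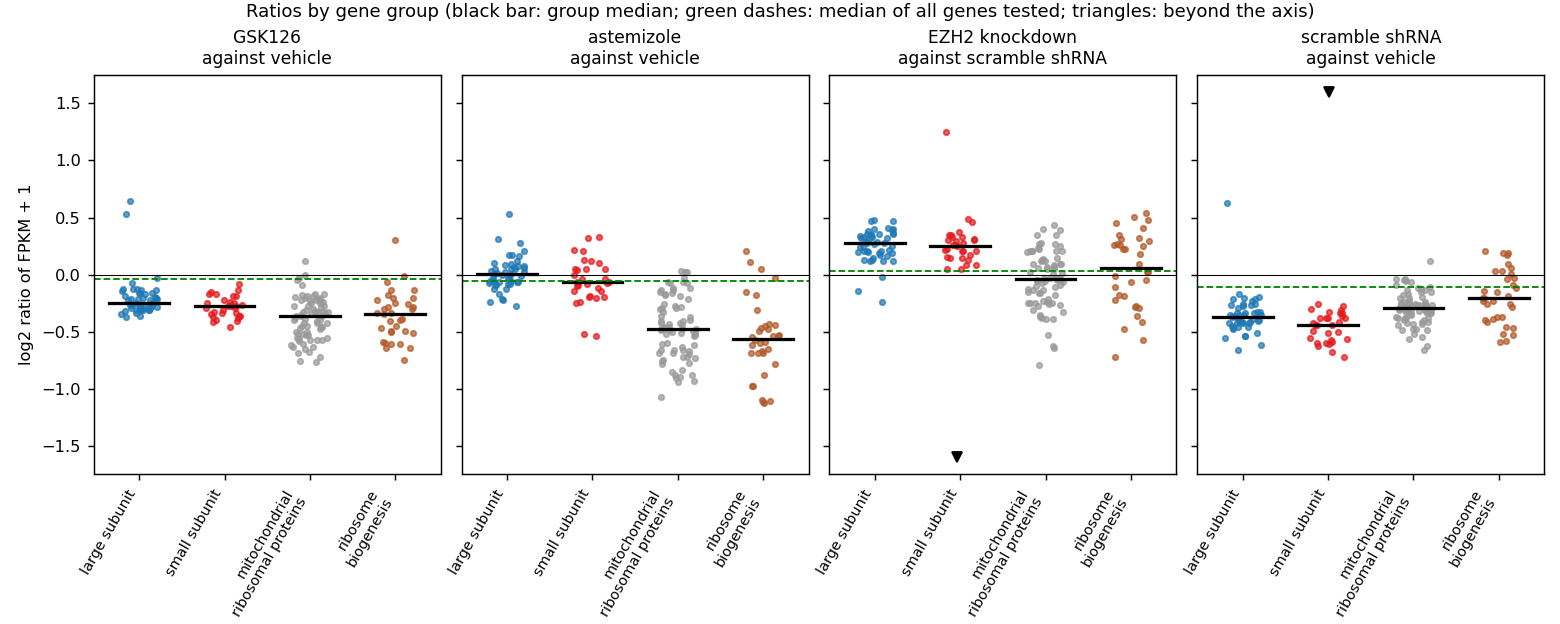
Log2 ratios of FPKM + 1 per gene in 4 comparisons for large subunit, small subunit, mitochondrial ribosomal protein and ribosome biogenesis genes; black bars are group medians, green dashes the median of all genes tested, and black triangles mark values beyond the axis. Members sit in a narrow band near -0.27 with GSK126, -0.02 with astemizole, 0.26 in the knockdown and -0.39 with scramble shRNA.

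In the knockdown against scramble shRNA the highest ratios after RPS27L were those of RPS28, at the mRNA exit, with 3841 FPKM in the knockdown and 2741 FPKM with scramble shRNA (0.49), RPL28 with 0.48, RPL37 with 0.47 and RPL10A with 0.47. RPL11 and RPL5, which form a particle with 5S rRNA and can bind MDM2 when ribosome assembly fails, had 0.41 and 0.34. RPS6, the substrate of S6 kinase, stood at 4740 FPKM in the knockdown and 3839 FPKM with scramble shRNA (0.30). RPLP0 and RPS12 lay close to scramble shRNA. RPLP0 stood at 2823 FPKM in the knockdown and 2867 FPKM with scramble shRNA (-0.02), and RPS12 at 2901 and 2796 FPKM (0.05). Both columns were below vehicle for these genes, which had 3846 FPKM for RPLP0 and 4601 FPKM for RPS12.

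Altogether 10 members had both lentiviral columns below the GSK126, astemizole and vehicle columns. These were RPL10L, RPL41, RPLP0, RPLP1, RPS12, RPS20, RPS26, RPS27A, RPS3A and RPS9. The share of all genes with this order was not counted, so 10 cannot be called many or few. RPLP1 stood at 5077 FPKM in the knockdown and 4604 FPKM with scramble shRNA, against 5958 with GSK126, 8393 with astemizole and 7261 with vehicle. RPS26 stood at 876 and 845 FPKM in the knockdown and with scramble shRNA, against 963, 1116 and 1273 FPKM with GSK126, astemizole and vehicle. Lentivirus and its absence cannot be told apart from any other difference between these pairs of libraries.

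**Figure D4:**
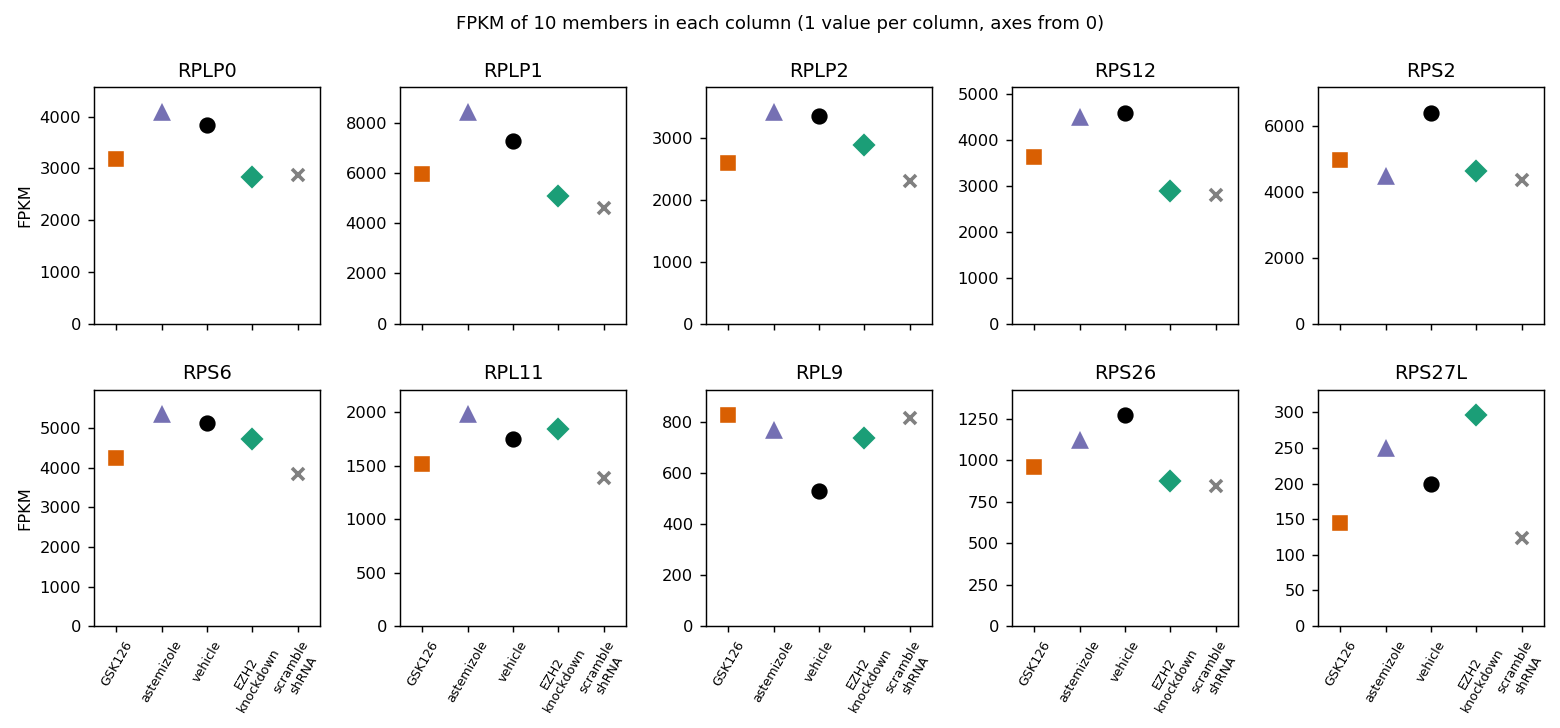
FPKM of 10 members in each column, with axes from 0 and 1 value per column. RPLP0, RPLP1, RPS12 and RPS26 are lowest in the knockdown and scramble columns, RPS2 is high with vehicle, RPL9 low with vehicle and RPS27L high in the knockdown.

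By role, medians differed more in some comparisons than in others. The 3 stalk genes had medians of -0.29 with GSK126, 0.08 with astemizole, 0.14 in the knockdown and -0.54 with scramble shRNA against vehicle. The 8 genes of the peptide exit tunnel and its rim (RPL4, RPL17, RPL39, RPL23A, RPL35, RPL19, RPL26 and RPL31) had -0.25, -0.05, 0.22 and -0.34 in the same order. The 3 of the mRNA entry and decoding site (RPS2, RPS3, RPS23) had -0.35, -0.12, 0.25 and -0.55. The 3 near the peptidyl transferase centre (RPL3, RPL8, RPL10) had -0.16, 0.07, 0.22 and -0.34. The stalk and the mRNA entry medians were below the family's lower quartile with scramble shRNA. The mRNA entry median was also below it with GSK126 and with astemizole, and the stalk median in the knockdown. Of these groups, the peptidyl transferase median with GSK126 and the stalk median with astemizole were above the family's upper quartile. So was the knockdown median of RPL5 and RPL11, which bind 5S rRNA, at 0.37. With astemizole the peptidyl transferase median lay about at that quartile.

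The subunits differed little. Large minus small subunit medians were 0.03 with GSK126, 0.07 with astemizole, 0.02 in the knockdown and 0.07 with scramble shRNA against vehicle, each smaller than the interquartile range of the members, which was between 0.12 and 0.17. No test of the subunits against each other is given.

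Most members lay close together. Their interquartile range was 0.12 with GSK126, 0.16 with astemizole, 0.17 in the knockdown and 0.14 with scramble shRNA. Over all genes it was 0.47, 0.63, 0.58 and 0.37, and over the other genes at 200 FPKM or more 0.35, 0.79, 0.62 and 0.27. The standard deviation, which counts outlying genes in full, was 0.16 with GSK126, 0.17 with astemizole, 0.44 in the knockdown and 0.37 with scramble shRNA, against 0.43, 0.63, 0.67 and 0.33 over all genes. Over members with scramble shRNA it was thus wider than over all genes. Without RPL9 and 1 other member it was 0.17 in the knockdown and 0.12 with scramble shRNA. Within 1.2-fold of the family's own median lay 76 members with GSK126, 71 with astemizole, 73 in the knockdown and 73 with scramble shRNA. Outside it lay, among others, RPL9 and RPL10L with GSK126; RPL9, RPL10, RPL28, RPS2, RPS27 and RPS27L with astemizole; RPL9, RPL10L, RPLP0 and RPS27L in the knockdown; and RPL9, RPLP1, RPS12 and RPS27L with scramble shRNA. The steadiest genes over the 5 columns were RPL15, with a 1.13-fold range, and RPL4, with a 1.16-fold range. RPL35A, RPL27 and RPS10 followed, none above a 1.21-fold range, and the median member ranged 1.36-fold. RPL27 was among the members nearest to vehicle with scramble shRNA (-0.20).

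Across 76 members, leaving out RPL9 and 1 other, ratios of astemizole to vehicle and of the knockdown to scramble shRNA, which share no column, had a Pearson r of 0.40 and a Spearman rho of 0.41. For GSK126 to vehicle and the knockdown to scramble shRNA these were -0.37 and -0.05. These describe genes within single libraries, and genes are not independent: all points come from the same columns. The 45 members with a pyrimidine run at the start had medians of -0.27, 0.00, 0.28 and -0.41 in the 4 comparisons, and the 18 without one -0.20, -0.05, 0.21 and -0.33.

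RPL9, a protein of the large subunit, had levels out of step with the rest. RPL9 stood at 827 FPKM with GSK126, 764 with astemizole, 528 with vehicle, 738 in the knockdown and 815 with scramble shRNA. It was low with vehicle only, with ratios of 0.65, 0.53 and 0.62 for GSK126, astemizole and scramble shRNA against vehicle. Near-identical copies of RPL9 exist, and the division of reads was not tested.

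RPS27L differed from its partner most in the knockdown. It encodes a near copy of RPS27 and is known as a direct target of p53. RPS27L stood at 145 FPKM with GSK126, 248 with astemizole and 199 with vehicle, and at 296 in the knockdown and 124 with scramble shRNA. The knockdown was the highest column and scramble shRNA the lowest. RPS27 stood at 7019, 9901 and 7897 FPKM with GSK126, astemizole and vehicle, and at 7045 and 6382 FPKM in the knockdown and with scramble shRNA. The log2 ratio of the knockdown to scramble shRNA was 1.25 for RPS27L and 0.14 for RPS27, and RPS27L made up 4.03% of the pair's FPKM in the knockdown against 1.91% with scramble shRNA. Against vehicle the knockdown ratio of RPS27L was 0.57. With astemizole the pair had ratios alike, 0.32 for RPS27L and 0.33 for RPS27, and with GSK126 -0.46 and -0.17. The start of RPS27 printed above opens with CCTTTCC and that of RPS27L does not.

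The other paralogues within the rule were low or listed at 0. RPL39L, a testis paralogue of RPL39 also reported in tumours, was listed at 0 in all 5 columns, while RPL39 lay between 3322 and 4254 FPKM. BOP1, a ribosome biogenesis gene that dividing cells use, was listed at 0 in all 5 columns as well, so a listing at 0 need not mean that the mRNA was absent. RPL3L, the muscle paralogue of RPL3, was listed at 0 in 4 columns and at 0.0814 FPKM with scramble shRNA. RPL10L, the testis paralogue of RPL10, stood at 6.67 FPKM with GSK126, 4.95 with astemizole, 4.31 with vehicle, 2.90 in the knockdown and 3.62 with scramble shRNA, at most 1.11% of the pair. Its ratio was 0.53 with GSK126, where RPL10 had -0.16, and -0.24 in the knockdown, where RPL10 had 0.32. Reads of RPL10 could be counted there, which was not tested.

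Of 4 paralogues with other name forms, listed apart from the rule, 3 had ratios unlike their partner's in at least 1 comparison. RPL22L1, which can take the place of RPL22, stood at 284, 233 and 379 FPKM with GSK126, astemizole and vehicle, against 227, 261 and 273 FPKM for RPL22. It made up 47.1% of the pair with astemizole and 58.1% with vehicle, and its ratio for astemizole was -0.70. RPL7L1 stood at 128 FPKM in the knockdown and 201 FPKM with scramble shRNA (-0.64), while RPL7 stood at 3566 and 2790 FPKM (0.35). RPL7L1 also had -0.51 with astemizole, against -0.06 for RPL7. RPL26L1 had -0.45 with astemizole and RPL26 0.00. RPL36AL and RPL36A went together, with 0.47 and 0.29 in the knockdown and -0.03 and -0.08 with astemizole. No test of these pairs was possible with 1 value per column.

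**Figure D5:**
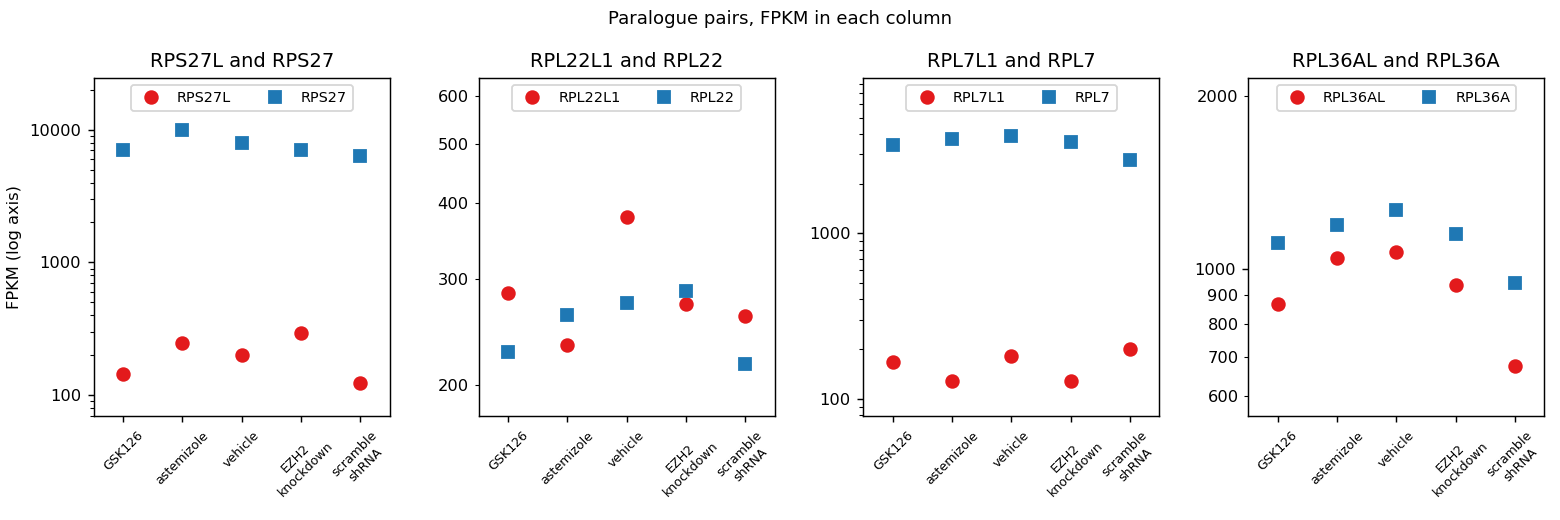
FPKM (log axis) of 4 paralogue pairs in each column, with the paralogue as red circles and the standard gene as blue squares. RPS27L is highest in the knockdown while RPS27 is not, RPL22L1 lies above RPL22 with GSK126, vehicle and scramble shRNA, and RPL7L1 is lowest in the knockdown and with astemizole.

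Of the standard ribosomal proteins whose names the rule does not take in, FAU and RPSA were below vehicle with both compounds. FAU, which encodes a ubiquitin-like fusion of a ribosomal protein, had -0.38 with GSK126, -0.08 with astemizole and 0.29 in the knockdown. RPSA, the laminin receptor protein of the small subunit, had -0.38 with GSK126, -0.34 with astemizole and 0.02 in the knockdown.

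Genes that serve the ribosome without being part of it did not all do the same. Of 34 ribosome biogenesis genes, 28 (82.4%) passed 1.2-fold downward and 0 upward with astemizole (median -0.56), against 32.9% and 24.2% of all genes. The ribosomal protein median was -0.02. NOP58, a core protein of box C/D snoRNPs, stood at 45.02 FPKM with astemizole and 99.7 FPKM with vehicle (-1.13), NOP56 had -1.12, NOP14 -1.11 and DKC1, the pseudouridine synthase, -1.10. With GSK126 it was 23 downward (67.6%, against 25.6% of all genes) and 1 upward (median -0.34), with the methyltransferase FBL at -0.75. In the knockdown 11 passed 1.2-fold upward (32.4%) and 8 downward (23.5%), near the 27.7% and 26.1% of all genes (median 0.06). The 6 ribosomal protein chaperones (GRWD1, HEATR3, TSR2, BCCIP, AAMP and PDCD2) had medians of -0.29 with GSK126, -0.39 with astemizole and 0.17 in the knockdown.

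The 76 mitochondrial ribosomal protein genes had a median of -0.48 with astemizole, and 57 of them passed 1.2-fold downward and 0 upward, against 32.9% and 24.2% of all genes. Their medians were -0.37 with GSK126, -0.04 in the knockdown and -0.29 with scramble shRNA against vehicle. The 37 proteasome subunit genes tested had -0.27, -0.28, 0.39 and -0.22. The differences between these groups and the cytosolic genes were not tested.

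Of 17 other mRNAs listed for a TOP tract, mostly of translation factors, 4 passed 1.2-fold upward and 4 downward with astemizole (23.5% each, against 24.2% and 32.9% of all genes, median -0.01). With GSK126 it was 0 upward and 4 downward, against 19.5% and 25.6% of all genes (median -0.05). In the knockdown it was 7 upward (41.2%) and 1 downward (5.88%), against 27.7% and 26.1% of all genes (median 0.22). EEF1A1, elongation factor 1A, stood at 6218 FPKM with astemizole and 5428 FPKM with vehicle (0.20), and EEF2 had 0.37, while the histone chaperone NAP1L1 had -1.64 and HNRNPA1 -1.02. In the knockdown EIF3F had 0.64 and EIF3H 0.55. Of 9 translation control genes, 6 (66.7%) passed 1.2-fold downward and 0 upward with astemizole, against 32.9% and 24.2% of all genes (median -0.38). EIF4EBP1, which encodes a repressor of the cap-binding protein eIF4E, stood at 84.5 FPKM in the knockdown and 220 FPKM with scramble shRNA (-1.37). MYC, a driver of ribosome production, had -0.26 with GSK126, -0.88 with astemizole and 0.02 in the knockdown, and LARP1 had 0.15, 0.19 and 0.30.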

How the data were processed

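Polyadenylated RNA of C4-2 cells was sequenced in 6 libraries. The deposited table gives FPKM values computed by the authors; TopHat2, Cuffdiff and hg19 appear in the submitters' processing notes, without annotation, filters or scaling options. From its 28503 lines, 27 names turned into dates and 1670 short non-coding RNA genes were left out, and 12938 genes that reached 1 FPKM in some column were kept. Ratios are log2 of FPKM + 1 over FPKM + 1 (Python 3.11.15, pandas 2.3.3), tested on simulated data. Counts use folds of 1.2 and 2. With 1 value per condition there is no test, and depth is unknown. The scale understates ratios of low genes.

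The members, lists and comparisons were chosen with earlier results of these data known, so no pattern here is independent support. The rule for names was the 5 highest and 5 lowest members per comparison, by vehicle level and by range, paralogues with their partners, members listed at 0, and up to 4 genes of each other list in each comparison; further names, among them RPL5, RPL11, RPS6, RPS23, LARP1 and MYC, were chosen after their values were seen, as were the 200 FPKM class and the pyrimidine run of 5 bases. Y-linked copies of RPS4X and some other genes, counted in the totals where they are members, are not reported here. Coding lengths are the longest in GENCODE 29, and promoters and other names are from RefSeq GRCh38.p14, a later build than hg19.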

Additional observations from a re-analysis of the deposited data

How the results depend on the processing

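No paired analysis was possible because each condition has 1 value and no result comes from a test; leaving out a replicate was not possible either. The alternative on proteins under 100 residues was not run, since no protein table was used here. Of 155 summary values under an alternative, 131 stayed near the main value. Some of these could not move: the filter at 5 FPKM kept the same 78 members, and centring cannot change a subunit difference. The tally is therefore no measure of how stable the results are. Direction was checked only where the main ratio was at least 1.2-fold. The astemizole median of -0.02 thus counts as near at 0.019 with TPM rescaling and 0.037 when centred. Medians and subunit differences were judged against the spread over members (SD without RPL9 and 1 other member). That spread was larger than every subunit difference, so a change of sign could count as near. With scramble shRNA as the control, the astemizole subunit difference went from 0.073 to -0.035 and was counted so. Counts were judged by their ratio to the main count, and shares against the difference between vehicle and scramble shRNA. None of these is replicate error, which is unknown.

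The choice of control mattered most. With scramble shRNA as the control, the GSK126 median was 0.15 and turned in direction, and 10 members passed 1.2-fold upward and 1 downward, in place of 2 and 41. Astemizole then had a median of 0.37, with 60 higher and 1 lower in place of 5 and 3. With vehicle as its control, the knockdown had a median of -0.13, with 2 higher and 13 lower in place of 38 and 1. Rescaling to TPM gave a GSK126 median of -0.054, with 2 higher and 0 lower, and a scramble shRNA median of -0.13 with 15 lower in place of 67; the knockdown then had 2 lower and astemizole 5 higher and 2 lower. That step moved the median of all genes from -0.04 to 0.16 with GSK126 and from -0.11 to 0.12 with scramble shRNA. Centring each ratio on all genes gave 2 higher and 24 lower members with GSK126, 8 higher and 2 lower with astemizole, and 2 lower in the knockdown. A pseudocount of 0.1 gave 2 lower in the knockdown, and 3 without a filter. Leaving out RPL9 and that other member gave 1 higher with GSK126, 0 lower in the knockdown and 0 higher with scramble shRNA, and leaving out the paralogues gave 1 higher with GSK126. The astemizole share was 35.2% over names in the symbol tables only. Apart from the choice of control, rescaling and centring, whose construction shows how they act, the cause was not tested.

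Sign changes were counted over the 78 members and not over all genes, so their number cannot be called high or low. With the other control, 72 members changed sign for GSK126, 43 for astemizole and 65 for the knockdown. With TPM rescaling 26 did so for GSK126, 8 for astemizole, 0 for the knockdown and 10 for scramble shRNA. Most of these that turned under TPM were under 1.2-fold to begin with. Of the members in the rule for names that were past 1.2-fold, those that turned for GSK126 against scramble shRNA were RPS27L (0.22), RPS15 (0.10), RPS26 (0.19), RPS21 (0.11), RPS19 (0.22), RPS2 (0.19), RPL24 (0.12), RPS9 (0.20), RPS27A (0.30), RPL28 (0.32), RPLP0 (0.15), RPS28 (0.34), RPL37 (0.12), RPS12 (0.38), RPLP1 (0.37), RPL22 (0.066), RPL27A (0.16) and RPL41 (0.26). For astemizole against scramble shRNA they were RPL9 (-0.093), RPS2 (0.031) and RPL24 (0.18). For the knockdown against vehicle they were RPS15 (-0.18), RPS21 (-0.19), RPS19 (-0.13), RPS27A (-0.35), RPL28 (-0.14), RPL10 (-0.040), RPS28 (-0.13) and RPL27A (-0.14). After TPM rescaling RPL35A, the 1 such member that turned, had 0.00376 with scramble shRNA against vehicle.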

Other observations

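Non-coding RNA genes that host snoRNAs, several of which carry a pyrimidine tract like the ribosomal protein genes, are given as values. With astemizole 2 of 8 were at least 1.2-fold higher and 3 lower, shares near the 24.2% and 32.9% of all genes. SNHG5 had a log2 ratio of 0.41 and GAS5 0.33, while SNHG1 had -1.22 and SNHG16 -1.04. In the knockdown GAS5 stood at 266 FPKM against 198 FPKM with scramble shRNA (0.42), while SNHG12 had -0.83. With GSK126 4 of 8 passed 1.2-fold downward and 0 upward, against 25.6% and 19.5% of all genes. Scramble shRNA had 7 of 8 at least 1.2-fold lower than vehicle, against 28.2% of all genes (median -0.45).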
